A study of Mus musculus with 10 samples.

Results

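The SR splicing factors examined here are the products of 10 mouse genes: Srsf1, Srsf2, Srsf3, Srsf4, Srsf5, Srsf6, Srsf7, Srsf9, Srsf10 and Srsf11. They were chosen by gene name, not by any measured value, and each name matched 1 of the 46955 rows of the expression table. All 10 passed the filter on low values described below. RNA-seq was used to measure RNA abundance in 10 mouse libraries of the C57BL/6 strain. Strap-/- (KO) and wild-type (WT) embryonic stem cells (ESCs) gave 1 library each. Embryoid bodies (EBs, aggregates of differentiating ESCs) at day 9 gave 2 WT and 2 KO libraries. Whole wild-type embryos at embryonic day 8.0 (E8.0) and at embryonic day 9.0 (E9.0) gave 2 libraries each. Strap encodes a WD40-repeat protein of the SMN complex, and the study asked how it affects alternative splicing. The Strap allele was made with zinc finger nucleases, and the ESC lines came from blastocysts of heterozygous parents and were grown on fibroblast feeder cells. EBs were formed in hanging drops and then kept in a neuroectoderm medium. The RNA of each embryo library came from pooled embryos. The study's text describes the paired EB and embryo libraries as biological replicates. Which ESC line gave each library is not given in the sources used here, so p-values measure the spread between these libraries and not that between lines.

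SR proteins carry an RNA recognition motif at the amino end and a region rich in arginine and serine at the carboxyl end. They bind exonic enhancers in nascent transcripts, help U1 snRNP and U2AF to find splice sites, and so favour exon inclusion. SRPK and CLK kinases phosphorylate the arginine-serine region and set where the proteins sit in the cell. Many SR genes control their own output by splicing in an exon with an early stop codon, which sends the transcript to nonsense-mediated decay.

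The annotation of GRCm38 (GENCODE) listed 85 transcripts for these genes, of which 29 were coding, 15 were decay transcripts in 9 genes and 26 held a retained intron in 8 genes. Srsf10 had no decay transcript. A gene's FPKM (the fragment number relative to transcript length and library size) sums its transcripts, so coding and decay forms are not separated in any value here. In 6 genes the stop codon of an annotated decay transcript fell in sequence that no coding transcript of the gene contains. The last 30 bases of that reading frame are shown for 1 decay transcript of each, because they lead into and hold the stop that the coding transcripts lack. Capitals mark the stop codon, and the coordinates are those of the exon that holds it. All 30 bases lie in that exon and in no coding transcript for Srsf3, Srsf4 and Srsf9. This holds for the last 28 bases in Srsf7, 23 in Srsf11 and 15 in Srsf5, and the bases before them come from the preceding exon.
Srsf3 (stop in the exon at chr17:29039454-29039909, plus strand): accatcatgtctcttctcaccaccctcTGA
Srsf7 (stop in the exon at chr17:80204622-80205081, minus strand): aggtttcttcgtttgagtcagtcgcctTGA
Srsf4 (stop in the exon at chr4:131884276-131884482, plus strand): gtaacccggttgtctcatgccccagctTAG
Srsf5 (stop in the exon at chr12:80947116-80947381, plus strand): ggttttggttttgtgggcttctctgtaTAG
Srsf9 (stop in the exon at chr5:115328347-115328704, plus strand): cctgggttggagattacggattcacagTAG
Srsf11 (stop in the exon at chr3:158024123-158024231, minus strand): gctgaagttcttttccctggttcagccTGA
From the stop to the last exon junction there were 548 bases in this Srsf3 transcript, 699 in Srsf7, 617 in Srsf4, 251 in Srsf5, 700 in Srsf9 and 456 in Srsf11. In Srsf1 and Srsf2 the stop of the decay transcripts lay in exonic sequence of all coding transcripts, and in Srsf6 in that of 1 of 2.

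Upstream sequence was compared among the members with RefSeq promoters on GRCm38.p6, which matched all 10 genes. In the 250 bases before the transcription start, the GC box (GGGCGG, both strands) was found in 9 of 10 members against 32.9% of 27025 promoters of the same length. Srsf3 was the member without it. The core of the cAMP response element (CRE, TGACG) was found in 6 members against 17.9%, and the ETS core (CGGAAG) in 5 against 13.8%. CCAAT was found in 3 members against 34.5%, TATAAA in 2 against 13% and the E-box CACGTG in 0 against 6.0%. GC content of the window was between 56.8% and 77.2% in the members, above the median of 52.0% over all promoters in each of them, and GC-rich letters are met more often in GC-rich sequence. The windows of Srsf5 and its paralogue Srsf6 are shown because these genes differed in opposite directions between EBs and embryos, and that of Srsf9 because it differed in the same direction as Srsf6. Capitals mark matches to the motifs named above on either strand, and adjoining matches run together.
Srsf5 (chr12:80945249-80945498, plus strand): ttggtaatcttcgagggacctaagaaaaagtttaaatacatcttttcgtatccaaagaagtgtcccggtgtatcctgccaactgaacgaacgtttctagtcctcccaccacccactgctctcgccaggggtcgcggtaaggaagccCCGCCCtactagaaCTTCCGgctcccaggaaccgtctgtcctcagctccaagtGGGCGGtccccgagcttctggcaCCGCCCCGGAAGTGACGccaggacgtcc
Srsf6 (chr2:162931258-162931507, plus strand): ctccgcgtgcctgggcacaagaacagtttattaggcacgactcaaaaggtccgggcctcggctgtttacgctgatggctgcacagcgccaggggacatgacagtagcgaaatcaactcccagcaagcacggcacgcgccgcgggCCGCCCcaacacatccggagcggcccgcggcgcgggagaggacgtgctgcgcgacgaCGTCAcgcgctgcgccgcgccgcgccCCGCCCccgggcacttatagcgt
Srsf9 (chr5:115326927-115327176, plus strand): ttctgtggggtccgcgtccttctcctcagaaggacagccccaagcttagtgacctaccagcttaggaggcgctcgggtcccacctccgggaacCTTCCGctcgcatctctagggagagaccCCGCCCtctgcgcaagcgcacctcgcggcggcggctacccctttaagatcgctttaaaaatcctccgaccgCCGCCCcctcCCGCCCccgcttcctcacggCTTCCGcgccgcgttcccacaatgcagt
Srsf5 held matches to the GC box, the CRE core and the ETS core, Srsf6 to the GC box and the CRE core, and Srsf9 to the GC box and the ETS core. No motif searched was held by Srsf6 and absent from Srsf5.

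Strap stood at 68.7 FPKM in the WT ESC library against 14.5 in the KO one, and at 49.7 and 47.2 in the WT EB pair against 8.48 and 11.3 in the KO pair, so the labelled genotypes were borne out. FPKM tables hold no counts, and the depth of the libraries is unknown. Between 12881 and 13886 rows reached 1 FPKM in a library. Replicate embryo pools were closer to each other (median absolute log2 difference 0.10 and 0.11) than replicate EB libraries (0.25 in WT and 0.27 in KO). Rows resembling ribosomal RNA took 14.6% of FPKM in the first WT EB library and 0.03% to 6.81% in the others. The summed FPKM of 8 pluripotency markers reached 2159 and 2065 in the ESC libraries, 476 and 1155 in the WT EB pair, 1521 and 1937 in the KO EB pair and 26.8 to 33.9 in embryos. The sum of 8 neuroectoderm markers was 8.88 in each ESC library, 33.4 to 88.6 in EBs and 87.2 to 185 in embryos.

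All 10 SR genes were well expressed in every library. Srsf4 was the lowest of them in each library, between 21.4 FPKM in the second KO EB library and 44.9 in the second E9.0 pool. Srsf1 was the highest in each, between 209 FPKM in the second WT EB library and 428 in the second E9.0 pool. Together the 10 genes summed to 1312 FPKM in WT ESCs and 1325 in KO ESCs, to 1127 ± 23.5 (SD, n = 2) in WT EBs and 1222 ± 58.4 (n = 2) in KO EBs, and to 1670 ± 56.4 (n = 2) at E8.0 and 1743 ± 50.8 (n = 2) at E9.0. The sums of the EB libraries were below those of the ESCs, and those of the ESCs below those of the embryos. Srsf1 contributed 18.8% to 24.7% of the sum. Srsf5 contributed 14.5% to 19.1% in ESCs and EBs and 6.88% to 7.61% in embryos, and these ranges did not overlap.

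**Figure D1:**
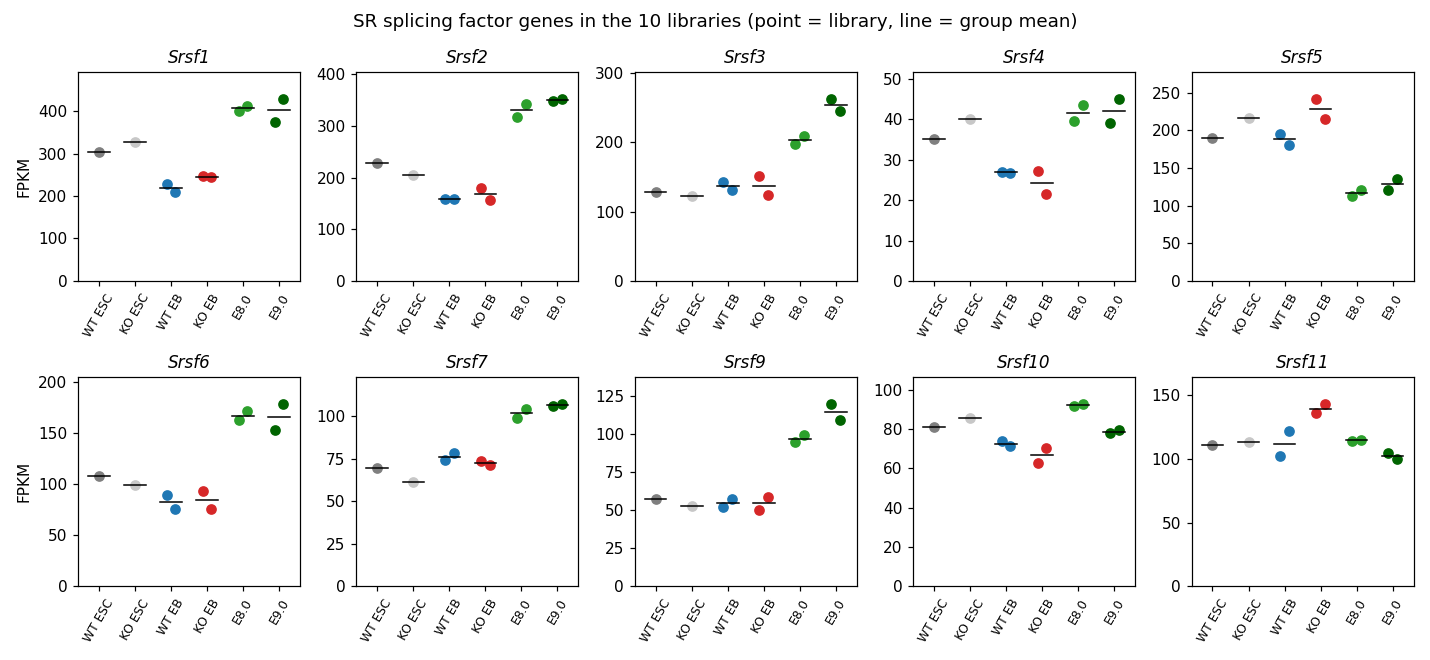
FPKM of each SR gene (y axis, from 0, a separate scale per gene) in the 6 groups (x axis); a point is a library and a line the group mean. Srsf1, Srsf2, Srsf3, Srsf6, Srsf7 and Srsf9 are higher in all 4 embryo pools than in any ESC or EB library, Srsf5 is lower in them, and Srsf11 is highest in KO EBs.

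**Figure D2:**
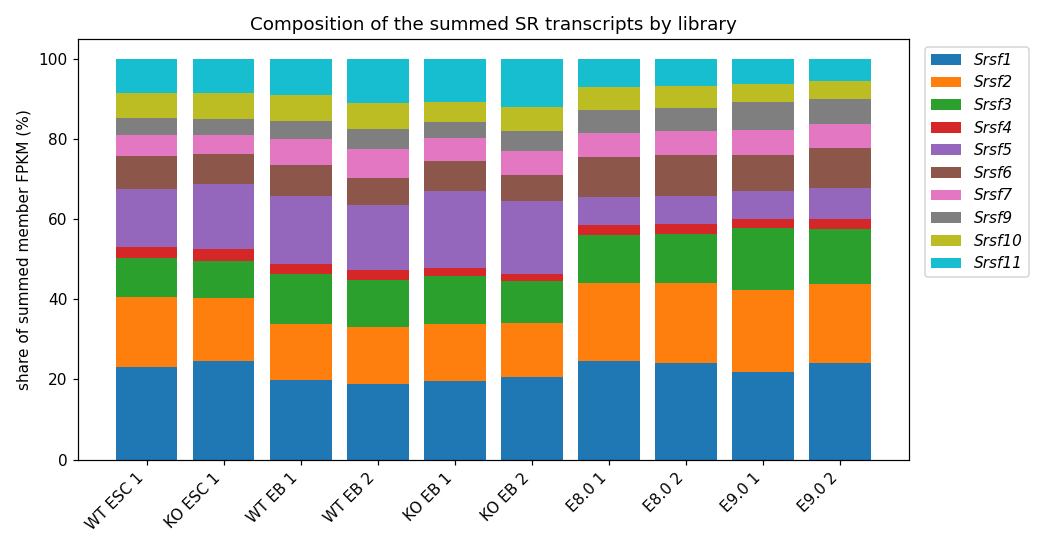
Share of each SR gene in the summed FPKM of the 10 genes (y axis, percent) in each library (x axis). The Srsf5 band takes 14.5% to 19.1% in ESCs and EBs and 6.88% to 7.61% in embryos.

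The order of the genes by FPKM, which is scaled to length, differed between culture and embryo. In WT EBs it ran Srsf1, Srsf5, Srsf2, Srsf3, Srsf11, Srsf6, Srsf7, Srsf10, Srsf9 and Srsf4, and only the libraries of the neighbours Srsf6 and Srsf7 overlapped. KO EBs had the same order except that Srsf11 stood before Srsf3, with overlapping libraries. At E8.0 it ran Srsf1, Srsf2, Srsf3, Srsf6, Srsf5, Srsf11, Srsf7, Srsf9, Srsf10 and Srsf4, with overlap between Srsf5 and Srsf11 and between Srsf7 and Srsf9. At E9.0 Srsf9 and Srsf7 stood before Srsf11, and no neighbours overlapped. Srsf5 thus took place 2 in EBs of both genotypes and place 5 in embryos.

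WT EBs were compared with embryos to see how the family differs between differentiating cells in culture and whole embryos. Of the 10 SR genes, 7 were lower in WT EBs (Srsf1, Srsf2, Srsf3, Srsf4, Srsf6, Srsf7 and Srsf9), 1 was higher (Srsf5) and 2 did not pass the test (Srsf10 and Srsf11). Over all 15160 rows tested, 20.3% were lower and 23.9% higher. The median log2 difference was -0.67 over the SR genes and 0.05 over all rows. Differences are on the log2(FPKM + 1) scale, tested in limma with p-values adjusted over the 15160 rows by Benjamini-Hochberg (threshold 0.05), and set WT EBs against the mean of E8.0 and E9.0. Culture and whole tissue differ in cell types, feeder history and RNA handling, and these cannot be told apart here. In bulk samples fewer cells of a type and less RNA per cell cannot be told apart either.

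Srsf2 binds enhancers rich in either C or G and is required for definition of many exons. It was at 159 and 158 FPKM in WT EBs, 318 and 342 at E8.0, and 348 and 352 at E9.0. All 4 embryo pools were above both EB libraries, and the gap was far wider than that between replicates. The log2 difference was -1.09 (SE 0.11, adjusted p = 0.000698). On the opposite strand the Srsf2 locus (chromosome 11, 116849901 to 116853094) overlaps Mettl23 and Mfsd11, and the authors' estimate used the strand of the reads. Srsf4 overlaps A930004J17Rik, and Srsf11 overlaps Gm43362, on the same strand, where the strand of the reads does not separate them.

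Srsf1, the founding member of the family, promotes use of proximal 5′ splice sites. It was at 229 and 209 FPKM in WT EBs, 400.0 and 412 at E8.0, and 375 and 428 at E9.0, again with no overlap. The log2 difference was -0.88 (SE 0.13, adjusted p = 0.00263). Srsf9, its closest relative among the members, was at 52.0 and 57.6 FPKM in WT EBs, 94.9 and 99.4 at E8.0, and 120 and 109 at E9.0. The groups did not overlap, and the log2 difference was -0.93 (SE 0.12, adjusted p = 0.00158). The FPKM ratio of Srsf1 to Srsf9 was 4.39 and 3.62 in WT EBs and 3.13 to 4.21 in embryos. This ratio thus did not separate WT EBs from embryos, unlike the levels. The ESC ratios, 5.27 (WT) and 6.15 (KO), were above those of every EB and embryo library.

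Srsf4, Srsf5 and Srsf6 are paralogues with a second, divergent RNA recognition motif. Srsf6 was at 89.0 and 76.2 FPKM in WT EBs, 163 and 171 at E8.0, and 153 and 178 at E9.0. Its log2 difference was -1.01 (SE 0.15, adjusted p = 0.00271), with no overlap. Srsf4 was at 27.0 and 26.7 FPKM in WT EBs, 39.5 and 43.4 at E8.0, and 39.1 and 44.9 at E9.0, a log2 difference of -0.61 (SE 0.16, adjusted p = 0.0173). Srsf5 ran the other way. It was at 196 and 181 FPKM in WT EBs, 112 and 121 at E8.0, and 121 and 135 at E9.0. Every WT EB library was above every embryo pool, and the log2 difference was 0.62 (SE 0.13, adjusted p = 0.00925).

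The ratio of Srsf5 to Srsf6 FPKM shows the contrast without any scaling between libraries. In ESCs the ratio was 1.77 (WT) and 2.17 (KO). In EBs it was 2.2 and 2.38 (WT) and 2.57 and 2.83 (KO). In embryos it was 0.689 and 0.707 at E8.0, and 0.788 and 0.760 at E9.0. All 6 cultured libraries were above 1 and all 4 embryo pools below it. The ratio of Srsf4 to Srsf6 was 0.304 and 0.350 in WT EBs and 0.243 to 0.255 in embryos, a smaller gap. It was 0.290 and 0.282 in KO EBs, and 0.325 (WT) and 0.402 (KO) in ESCs, also above all embryo pools. No test was made of the ratios.

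**Figure D3:**
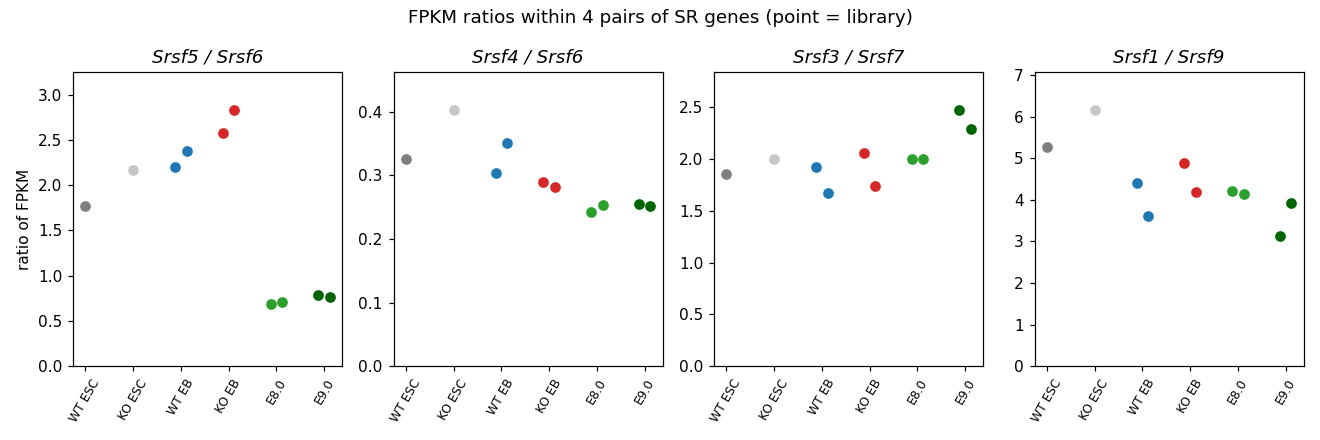
Ratio of FPKM within 4 pairs of SR genes (y axis, from 0) by group (x axis); a point is a library. Srsf5 over Srsf6 lies between 1.77 and 2.83 in ESCs and EBs and between 0.689 and 0.788 in embryos.

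Srsf3 and Srsf7 are short proteins with a single RNA recognition motif, and both act as adaptors of the mRNA export receptor Nxf1. Srsf3 was at 143 and 131 FPKM in WT EBs, 198 and 209 at E8.0, and 262 and 245 at E9.0. Its log2 difference between WT EBs and embryos was -0.73 (SE 0.12, adjusted p = 0.00393). Srsf7, which also has a zinc knuckle, was at 74.1 and 78.3 FPKM in WT EBs, 99.0 and 104 at E8.0, and 106 and 107 at E9.0. Its log2 difference of -0.45 (SE 0.10, adjusted p = 0.00959) was the smallest of the 7 that were lower. For both genes all embryo pools were above both WT EB libraries.

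Srsf10 is a splicing repressor when dephosphorylated, as after heat shock, and Srsf11 is known for its part in the inclusion of neuronal microexons. Srsf10 was at 73.9 and 71.1 FPKM in WT EBs, 91.5 and 92.5 at E8.0, and 77.8 and 79.3 at E9.0. The groups did not overlap, but the log2 difference of -0.23 (SE 0.10, interval -0.45 to -0.0046) did not pass the adjusted threshold (adjusted p = 0.0881). Srsf11 was at 102 and 122 FPKM in WT EBs, 114 and 115 at E8.0, and 104 and 99.8 at E9.0. These groups overlapped, and the log2 difference was 0.04 (interval -0.21 to 0.29, adjusted p = 0.759).

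KO EBs stood on the same side of the embryos as WT EBs for the 8 genes that passed, with Srsf5 above and the other 7 below all embryo pools. In ESCs the same held except for Srsf4 in the KO library, whose 40.1 FPKM lay within the embryo range of 39.1 to 44.9. Srsf4 in the WT ESC library, at 35.0 FPKM, was below that range. The number of SR genes past the threshold depended on the replicate WT EB libraries. It fell to 5 without the first WT EB library (Srsf1, Srsf2, Srsf3, Srsf6 and Srsf9) and to 2 without the second (Srsf2 and Srsf9), where calls over all rows also fell from 6701 to 3207 and 1388. No direction of the 8 genes changed, and Srsf1, for example, stayed between -0.95 and -0.82. The first WT EB library also held the high share of ribosomal RNA given above. Mitochondrial transcripts took 5.7% and 6.62% of FPKM in the WT EB libraries and 0.26% to 2.38% in embryos. The summed FPKM of 10 proliferation markers was 1161 and 1309 in WT EBs and 1459 to 1544 in embryos. The part of the ribosomal or mitochondrial share, or of the pluripotency or proliferation markers, in the differences was not tested.

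E8.0 and E9.0 embryos were compared to follow the family over early organogenesis. Srsf3 and Srsf9 were higher at E9.0, Srsf10 was lower, and the other 7 genes did not pass the test. Over all rows tested 13.7% were higher and 12% lower at E9.0, and the median log2 difference was 0.04 over the SR genes and 0.00 over all rows. Srsf3 was higher in both E9.0 pools (262 and 245 FPKM) than in either E8.0 pool (198 and 209), with a log2 difference of 0.32 (SE 0.07, limma adjusted p = 0.0172). Srsf9 (120 and 109 against 94.9 and 99.4 FPKM) had a log2 difference of 0.23 (SE 0.07, adjusted p = 0.0461). Srsf10 (77.8 and 79.3 against 91.5 and 92.5 FPKM) fell by 0.23 (SE 0.06, adjusted p = 0.0233) on the log2 scale. The SD of Srsf10 between replicate pools was 0.631 FPKM at E8.0 and 1.11 at E9.0 (n = 2 each), a small part of the gap between stages.

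Srsf11, at 104 and 99.8 FPKM at E9.0 against 114 and 115 at E8.0, also had stages that did not overlap. Its log2 difference of -0.17 (SE 0.06, limma adjusted p = 0.088) did not pass. Srsf2 and Srsf7 were also higher in both E9.0 pools than in either E8.0 pool, and did not pass (limma adjusted p = 0.368 and 0.424). The share of all rows without overlap between stages was not computed. Srsf1, Srsf4, Srsf5 and Srsf6 overlapped between stages, and the intervals of their differences lay between -0.22 and 0.31. The summed SR FPKM overlapped as well, at 1630 and 1710 at E8.0 and 1707 and 1779 at E9.0. The 3 calls rested on the narrow spread of the embryo pools: with 1 variance for EBs and embryos together 0 SR genes passed, with adjusted p from 0.227 to 0.322 for the 3 genes, and 0 passed without either E8.0 pool or without the first E9.0 pool. Srsf9 was the least stable of them and passed in 4 of 17 alternative settings. Erythroid markers moved with stage, with a summed FPKM of 881 and 2069 at E8.0 and 11265 and 7320 at E9.0, as did visceral endoderm markers (438 and 711 at E8.0, 16.3 to 35.9 at E9.0). Neuroectoderm markers (87.2 and 90.6 at E8.0, 183 and 185 at E9.0) and the feeder fibroblast markers, most of them matrix genes (201 and 242 at E8.0, 703 and 726 at E9.0) were also apart between stages. Rows resembling ribosomal RNA took 0.03% and 0.26% of FPKM at E8.0, and 1.98% and 1.22% at E9.0. The part of the marker lists, or of that share, in the SR differences was not tested.

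**Figure D4:**
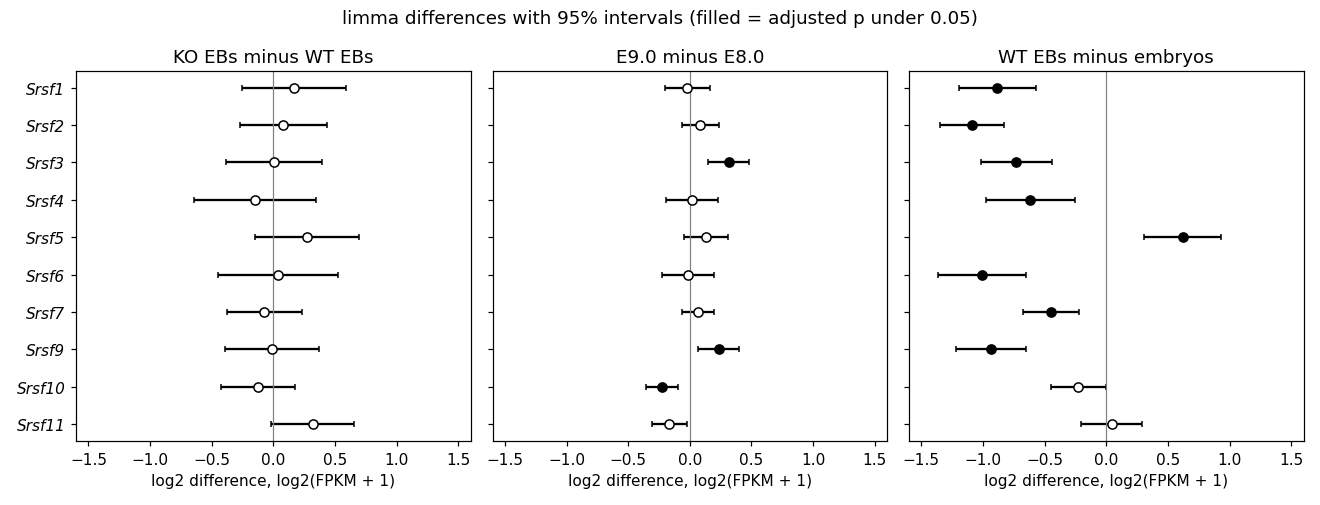
Differences in log2(FPKM + 1) (x axis) for the 10 SR genes (y axis) in 3 comparisons, from limma; bars are 95% intervals and filled points have an adjusted p under 0.05. No point is filled for KO against WT EBs, 3 are for E9.0 against E8.0 and 8 are for WT EBs against embryos.

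KO and WT EBs were compared to ask whether loss of Strap changed the transcripts of the SR family. Of the 10 SR genes, 0 passed the adjusted threshold in limma, and an unadjusted p under 0.05 was met by 0. Of all 15160 rows, 0.139% passed the adjusted threshold and 13.8% had an unadjusted p under 0.05. The median log2 difference was 0.02 over the SR genes and 0.01 over all rows. In simulated data of the same size this comparison recovered 93.6% of 4-fold but only 38% of 2-fold changes, so a 2-fold change would more often have been missed than found. For Strap itself the log2 difference was -2.19 (SE 0.23, adjusted p = 0.0191).

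Srsf11 and Srsf5 had the largest differences in this fit, but not in every setting. Srsf11 was at 136 and 143 FPKM in KO EBs against 102 and 122 in WT EBs, a log2 difference of 0.32 (SE 0.14, interval -0.02 to 0.66, adjusted p = 0.383). The gap between the 2 WT libraries was larger than that between the higher WT and the lower KO library. Without the first WT EB library the difference was 0.19, below the 0.33 of Srsf5, and with quantile normalization it was 0.15 while that of Srsf10 was -0.28. Srsf5 was at 241 and 215 FPKM in KO EBs against 196 and 181 in WT EBs, a log2 difference of 0.27 (SE 0.18, interval -0.15 to 0.69, adjusted p = 0.530). Groups did not overlap for 5 of the 10 genes (Srsf1, Srsf5, Srsf7, Srsf10 and Srsf11), and over all rows 46.7% did not. Srsf1 was at 247 and 245 FPKM in KO EBs, and Srsf7 at 73.6 and 71.2 against 74.1 and 78.3 in WT EBs.

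For the remaining genes the libraries of one genotype reached into the range of the other. Srsf2 was at 179 and 157 FPKM in KO EBs, with an interval of the log2 difference from -0.27 to 0.43. Srsf3 was at 152 and 123 FPKM (interval -0.39 to 0.39), and Srsf6 at 93.8 and 76.0 (interval -0.45 to 0.52). Srsf4 was at 27.2 and 21.4 FPKM (interval -0.64 to 0.35), and Srsf9 at 50.5 and 58.5 (interval -0.39 to 0.37). These intervals exclude a 2-fold difference in either direction for all 5 genes, but not every smaller one. Pluripotency markers were higher in KO EBs, as given above, and feeder fibroblast markers summed to 382 and 120 FPKM in the WT pair and 83.5 and 33.6 in the KO pair. Their part in these values was not tested.

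Each ESC genotype had 1 library, so these values have no replicate check. Between KO and WT ESCs 0 of the 10 SR genes differed by more than 1.5-fold, against 14.5% of all rows. The log2 ratio of FPKM + 1 was at most 0.19 in size, for Srsf4 (40.1 FPKM in KO and 35.0 in WT), followed by 0.18 for Srsf5 (216 and 190) and -0.17 for Srsf7 (61.5 and 69.4). The median log2 ratio was -0.01 over the SR genes.

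EBs were set beside ESCs of their own genotype. A gene was counted if the ratio passed 1.5-fold and the ESC value lay outside both EB values. Feeder fibroblast markers summed to 679 FPKM in the WT ESC library and 603 in the KO one, above the EB sums given earlier. Their part in the ratios was not tested. In WT, 0 SR genes were counted, against 22.5% of all rows higher and 17.1% lower in EBs. The lowest log2 ratios were -0.52 for Srsf2 (229 FPKM in ESCs) and -0.47 for Srsf1 (304 FPKM), both near the 1.5-fold limit. In KO, Srsf4 was lower in EBs (40.1 FPKM in ESCs against 27.2 and 21.4, a log2 ratio of -0.71) and the other 9 were not counted, against 22.2% of all rows higher and 14.7% lower. Without the second KO EB library Srsf4 was not counted.

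Across the 10 libraries the SR genes other than Srsf5 and Srsf11 varied together. Pearson's r between a gene and the mean of the other 9, on standardized log2 values, was 0.98 for Srsf2, 0.97 for Srsf6, 0.95 for Srsf1, 0.89 for Srsf9, 0.83 for Srsf3, 0.81 for Srsf4, 0.78 for Srsf7 and 0.59 for Srsf10. It was -0.91 for Srsf5 and -0.58 for Srsf11. The libraries fall into cultured cells and embryos, so these values largely describe that split. Outside the family the 5 rows most like the mean of the SR genes were Rbm45 (r = 0.99), U2af2 (0.99), Hoxb8 (0.99), Fzd10 (0.99) and Dcakd (0.99). U2af2, the large subunit of the factor that binds the polypyrimidine tract, was at 69.8 to 88.2 FPKM in EBs and 151 to 161 in embryos.

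Other genes of SR biology and splicing were taken from lists made by function, with earlier results of these data known. Srsf12, a paralogue outside the members, averaged 0.665 to 1.29 FPKM in the EB and embryo groups and passed no test. Of 24 hnRNP genes, whose products often oppose SR proteins at exons, 21 were lower in WT EBs than in embryos, 0 were higher and the median log2 difference was -0.62. Hnrnpa0 averaged 51.9 FPKM in WT EBs and 150 in embryos (log2 difference -1.49, adjusted p = 0.000401). Hnrnpd, which binds AU-rich elements, averaged 108 and 261 FPKM (log2 difference -1.26, adjusted p = 0.000426). The hnRNP genes and the 7 lower SR genes were thus on the same side in this comparison, which was not tested as a set.

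Of 26 other genes for proteins with arginine-serine regions, 8 were lower in WT EBs and 5 higher, and their median was -0.22. Rsrp1, an arginine-serine-rich protein, was higher (99.9 against 52.8 FPKM, log2 difference 0.91, adjusted p = 0.0068). Of 13 tested kinase, phosphatase and transport genes, 3 were lower, 3 were higher and the median was -0.11. Srpk2, a cytoplasmic SR protein kinase, averaged 28.3 FPKM in WT EBs and 14.2 in embryos (log2 difference 0.95, adjusted p = 0.00106). Clk1, a nuclear SR protein kinase named here after its values were seen, averaged 95 and 35.7 FPKM (log2 difference 1.39, adjusted p = 0.000414). Ppp1ca, a catalytic subunit of protein phosphatase 1, was lower (133 against 237 FPKM, log2 difference -0.84, adjusted p = 0.00133), as was the export receptor Nxf1 (73.0 against 125 FPKM, log2 difference -0.76, adjusted p = 0.0209). Of 15 genes for nonsense-mediated decay, 2 were lower and 2 higher. Beside these list counts, 20.3% of all rows tested were lower in WT EBs and 23.9% higher.

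**Figure D5:**
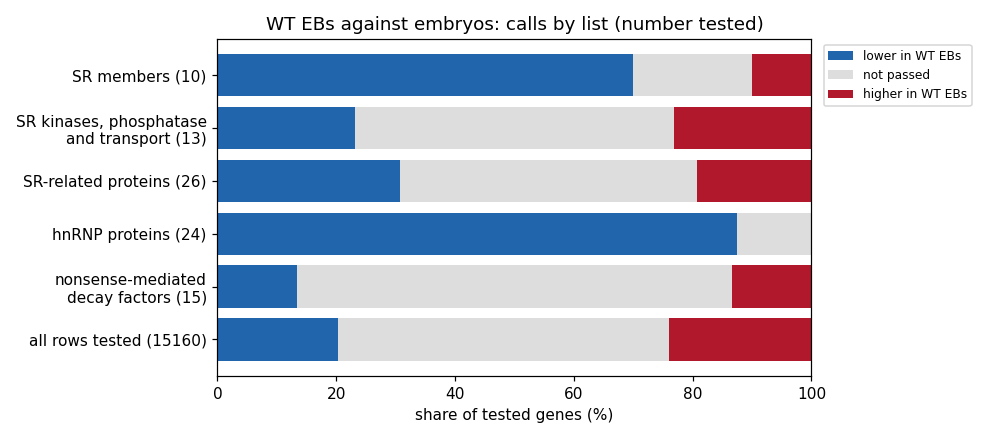
Share of the tested genes of each list (x axis, percent) that were lower, higher or not past the adjusted threshold in WT EBs against embryos; the number tested stands in brackets. Of the SR genes 7 of 10 are lower and of the hnRNP genes 21 of 24, against 20.3% of all rows.

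From E8.0 to E9.0, the kinase list had 1 gene higher and 2 lower: Srpk2 (12.8 to 15.7 FPKM, log2 difference 0.27, adjusted p = 0.0204), Srpk1 (89.2 to 70.0 FPKM, -0.35, adjusted p = 0.0154) and Clk2 (33.9 to 27.2 FPKM, -0.31, adjusted p = 0.0494). Among the hnRNP genes 5 were higher and 2 lower, and Ptbp1, a repressor of neuronal exons, fell from 483 to 335 FPKM (log2 difference -0.53, adjusted p = 0.00497). Among the other arginine-serine genes 1 was higher and 4 were lower, with Srrm1, a splicing coactivator, at 92.1 and 75.7 FPKM (log2 difference -0.28, adjusted p = 0.0259). Among decay genes Magoh, of the exon junction complex, was lower (134 to 105 FPKM, limma adjusted p = 0.0253). Beside these list counts, 13.7% of all rows tested were higher and 12% lower at E9.0. Between KO and WT EBs 0 genes of any of these lists passed the adjusted threshold in limma, while 1 kinase, phosphatase and transport gene, 1 arginine-serine gene, 2 hnRNP genes and 1 decay gene had an unadjusted p under 0.05, against 13.8% of all rows. The last was Smg9, of the kinase complex that acts on Upf1, at 18.4 FPKM in KO and 9.74 in WT EBs (log2 difference 0.86, adjusted p = 0.182).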

How the data were processed

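The authors trimmed paired-end reads with Cutadapt, aligned them to GRCm38 with STAR 2.5.2b and deposited 1 table of FPKM from Cufflinks 2.2.1, in which the strand of the reads was used. Labels and methods name different kits for removal of ribosomal RNA, and the headers of the E8.0 columns carry a later stage than the labels, which were followed. Whether libraries were rescaled to one another is not given in the sources used here.

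Differences were tested with limma 3.58.1 (R 4.3.3) on log2(FPKM + 1), with a trend, array weights that allow 1 variance for EBs (weight 0.428) and 1 for embryos (weight 2.34), 4 residual and 3.36 prior degrees of freedom, two-sided. Rows were tested if 2 or more of the 8 libraries from EBs and embryos reached an FPKM of 1 (15160 rows), and p-values were adjusted over all of them by the Benjamini-Hochberg method. The comparisons share libraries. This scale understates the change of low genes. In simulated data (15160 genes, 200 changed, 5 runs) 15.5% of calls between EBs and 14.4% of those between stages were false. With 1 variance these were 36.3% and 1.76%.

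Named genes were all members, Strap, up to 4 genes of each list with the lowest p in KO against WT EBs and up to 4 in E9.0 against E8.0, and the 5 rows most like the members. One gene that this rule takes is left out of the text. The members and lists were chosen with earlier results of these data known, and so was the variance model. Alternatives were other pseudocounts, filters, scalings, variance models, a replicate block and removal of each library. Sequences came from the GENCODE transcripts and RefSeq.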

Additional observations from a re-analysis of the deposited data

Results flagged for a closer look

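The sign of the KO against WT difference was opposite in ESCs and EBs for 5 of the 10 SR genes (Srsf2, Srsf3, Srsf4, Srsf6 and Srsf10). Over all rows 46.7% had EB genotypes that did not overlap, and of these 5 genes Srsf10 alone was among them. Its log2 ratio of KO to WT was 0.075 in ESCs (85.4 against 81.1 FPKM, 1 library each) and -0.12 in EBs, where both KO libraries (62.7 and 70.3 FPKM) were below both WT libraries (73.9 and 71.1). The difference between the cell states was not tested, and the share of all rows with opposite signs was not computed.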

How the results depend on the processing

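The 7 lower and 1 higher SR genes in WT EBs against embryos kept their direction under each of the 17 alternatives, and only removal of a WT EB library took calls away (2 to 8 genes called over the removals). Srsf10 also passed with median scaling and with 1 variance. From E8.0 to E9.0 the 3 calls became 0 with 1 variance, and 0 to 2 over the removals, and Srsf9 passed in only 4 of 17 alternatives. No SR gene passed between KO and WT EBs under any of them. Over all rows, calls in KO against WT EBs, 21 here, were 36 with a pseudocount of 0.1, 8 without a filter, 581 with 1 variance and 2 with only the groups compared. From E8.0 to E9.0, 3910 became 352 with 1 variance. The lowest and highest counts over the removals were 8 and 18 for EBs, 1438 and 3880 for stages, and 1388 and 6389 for WT EBs against embryos.

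Directions turned only for genes that had not passed in the comparison concerned. In KO against WT EBs quantile normalization gave -0.035 for Srsf1, -0.13 for Srsf2, -0.18 for Srsf3 and -0.12 for Srsf6, and median scaling gave -0.031 for Srsf3. Median scaling gave -0.021 for Srsf4 between stages and -0.049 for Srsf11 in WT EBs against embryos. Over the removals the differences between EBs ran from -0.013 to 0.17 for Srsf2, -0.14 to 0.15 for Srsf3, -0.31 to 0.018 for Srsf4, -0.11 to 0.19 for Srsf6 and -0.12 to 0.094 for Srsf9. Between stages they ran from -0.11 to 0.076 for Srsf1, -0.083 to 0.11 for Srsf4 and -0.12 to 0.093 for Srsf6, and for WT EBs against embryos from -0.085 to 0.17 for Srsf11. The cause was not tested.

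Median scaling moved the summed SR FPKM to 1347 in WT ESCs, 1373 in KO ESCs, 1090 in WT EBs, 1152 in KO EBs and 1744 at E8.0, and 1 SR gene was then counted in WT EBs against ESCs. In KO EBs against ESCs the count was 0 to 1 over the removals. Same-numbered WT and KO EB libraries also share a prefix in their column headers (Lin for the first pair, LJ for the second). What the prefix stands for is not given in the sources used here. Same-numbered embryo libraries share only the number. Both E9.0 pools also carry the LJ prefix and both E8.0 pools the prefix ey, so prefix and stage cannot be told apart. Deviations of same-numbered libraries correlated at 0.41 for EBs and -0.03 for embryos. With a replicate block 1 SR gene passed between stages, 0 between KO and WT EBs and 8 in WT EBs against embryos, and calls over all rows were 613 between EBs, 3541 between stages and 8929 in WT EBs against embryos. Depth is unknown, so counting error could not be given.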
